A study of Homo sapiens with 6 samples.

Results

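The genes described here are 52 genes that carry cells from G1 into S phase and copy the genome, measured in T24 cells with and without TGF-β1. They were taken by symbol from a table of 58735 gene rows, in which each of the 52 symbols occurred once. T24 is a long-used human cell line derived from a urothelial carcinoma of the bladder. The series holds 6 RNA-seq libraries, all at day 2: 3 from cells kept as controls and 3 from cells that received TGF-β1 (written TGF-b1 below) at 10 ng/ml for 48 h. All were labelled wild type and grown in medium with 10% serum. The labels do not say that replicates came from separate cultures, so p-values measure the spread among these 6 samples only, and that spread may be technical.

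Replication is licensed in G1, when the origin recognition complex, CDC6 and CDT1 load the MCM2 to MCM7 helicase onto DNA. At S phase entry CDC45 and the GINS complex turn the loaded helicase on, and polymerases, the sliding clamp PCNA and its loader RFC then copy both strands. Most of these genes are targets of E2F transcription factors, which the retinoblastoma protein holds back until cyclin D and cyclin E kinases phosphorylate it. In many epithelial cells TGF-β slows G1 through CDK inhibitors and lower MYC, and carcinoma cells have often lost that arrest.

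Promoter sequences give a readout of these genes that does not use the expression values. RefSeq promoters on GRCh38.p14, running from 250 bases before to 50 bases after a gene's start, were found for 45 of the 52 genes. The other genes were MCM4, MCM5, GINS4, POLD3, CCND1, CCNE2 and CDK2. An E2F-type motif, taken as TTTCCCGC, TTTGGCGC, TTTCGCGC or TTTGCCGC on either strand, was in 22 of these 45 promoters (48.9%), and 5 held 2 or more matches. The same letters were in 5.87% of 8266 promoters of genes that could be tested here and in 3.33% of all 27305. They were also in 12 of 52 promoters of a list of other G1/S and replication genes (23.1%) and in 3 of 29 of a list of G2/M genes (10.3%). The other 23 promoters of the genes described here held no match. The CHR motif of late cell cycle genes, TTTGAA on either strand, was in 1 of the 45 promoters (2.22%), against 19 of the 29 G2/M promoters (65.5%) and 8.98% of the tested genes. No motif of one kind contains the other, but matches of 1 kind on opposite strands can overlap. A match is a stretch of letters, not a measured binding site.

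The 6 promoters below are shown because they place these letters in the helicase genes MCM3, MCM6 and MCM7, the loader gene CDC6, the clamp gene PCNA and E2F1. The control and TGF-b1 values overlapped in MCM7 but not in MCM3 and MCM6, and differences between these genes were not tested. Each promoter is written 5′ to 3′ on the gene's strand with the E2F-type matches in capitals. They lie at chr6:52284693-52284992 (minus strand), chr2:135876394-135876693 (minus), chr7:100101348-100101647 (minus), chr17:40287629-40287928 (plus), chr20:5126573-5126872 (minus) and chr20:33686336-33686635 (minus).
MCM3: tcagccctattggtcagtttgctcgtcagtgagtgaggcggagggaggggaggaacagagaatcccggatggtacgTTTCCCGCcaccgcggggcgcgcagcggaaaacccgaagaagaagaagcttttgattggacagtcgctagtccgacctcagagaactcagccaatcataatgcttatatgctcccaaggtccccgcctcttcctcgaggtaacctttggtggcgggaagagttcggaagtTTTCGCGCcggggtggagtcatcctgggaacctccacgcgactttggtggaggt
MCM6: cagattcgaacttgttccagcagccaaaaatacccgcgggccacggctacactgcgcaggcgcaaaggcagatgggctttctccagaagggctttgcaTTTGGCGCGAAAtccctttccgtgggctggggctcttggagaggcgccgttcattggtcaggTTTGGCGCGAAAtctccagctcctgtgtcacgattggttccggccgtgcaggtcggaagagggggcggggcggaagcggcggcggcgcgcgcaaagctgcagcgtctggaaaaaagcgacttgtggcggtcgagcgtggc
MCM7: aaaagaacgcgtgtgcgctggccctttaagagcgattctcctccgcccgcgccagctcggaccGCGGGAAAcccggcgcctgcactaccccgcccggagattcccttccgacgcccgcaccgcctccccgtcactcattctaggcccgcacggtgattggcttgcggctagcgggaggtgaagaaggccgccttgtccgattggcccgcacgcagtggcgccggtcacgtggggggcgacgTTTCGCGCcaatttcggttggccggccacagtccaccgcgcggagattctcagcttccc
CDC6: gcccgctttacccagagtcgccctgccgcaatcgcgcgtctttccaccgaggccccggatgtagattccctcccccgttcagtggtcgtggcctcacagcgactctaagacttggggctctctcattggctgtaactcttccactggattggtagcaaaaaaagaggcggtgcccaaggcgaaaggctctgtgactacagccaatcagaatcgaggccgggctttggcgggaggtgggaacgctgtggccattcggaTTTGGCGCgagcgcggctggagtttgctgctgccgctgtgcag
PCNA: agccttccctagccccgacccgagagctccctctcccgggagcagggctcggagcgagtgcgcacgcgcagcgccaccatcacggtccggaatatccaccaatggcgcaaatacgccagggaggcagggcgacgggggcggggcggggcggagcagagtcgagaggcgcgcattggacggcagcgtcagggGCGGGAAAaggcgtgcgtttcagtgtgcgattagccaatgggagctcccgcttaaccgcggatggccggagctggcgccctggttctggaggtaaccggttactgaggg
E2F1: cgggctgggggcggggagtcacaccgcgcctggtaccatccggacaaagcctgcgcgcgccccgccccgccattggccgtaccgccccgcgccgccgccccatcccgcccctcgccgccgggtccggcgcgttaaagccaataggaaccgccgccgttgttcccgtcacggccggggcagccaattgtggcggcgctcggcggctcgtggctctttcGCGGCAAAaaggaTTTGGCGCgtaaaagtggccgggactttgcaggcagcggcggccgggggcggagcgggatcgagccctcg
MCM6 held 2 pairs of matches in which opposite strands overlap, so 4 matches fall in 2 stretches. MCM3, MCM7 and E2F1 held 2 matches each, and CDC6 and PCNA 1 each. In the main fit given below, the 22 genes with a match had a median log2 change with TGF-b1 of 0.12 and the 23 without a match one of 0.10. Genes without a promoter entry are in neither set, and the median of all 52 was 0.15. That fit removed no trend with GC content, 1 promoter was read per gene, and the 2 sets were not tested against each other.

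All 52 genes were expressed. Levels are given as FPKM, the deposited fragments per kilobase of gene length, scaled to library size, which allows genes to be compared with each other. The median gene of the set stood at 21.4 FPKM over the 6 libraries, against 6.64 for the 11363 genes that reached 1 FPKM in at least 3 libraries, and 43 of the 52 lay above that value. Thymidine kinase TK1 was highest at 284 FPKM, followed by PCNA at 213, cyclin D1 (CCND1) at 140, MCM7 at 86.7 and RFC2 at 82.1. CCNE2, which encodes cyclin E2, was lowest at 2.07 FPKM, below the accessory polymerase alpha subunit POLA2 at 2.5 and GINS3 at 3.94. Exons of other genes cover 37.1, 35.1 and 10.9% of the exonic length of CCNE2, POLA2 and GINS3. Such sharing exceeded 10% in 13 of the 52 genes. Its effect on the levels was not tested, which limits comparison between genes. All 52 passed the filter, and the smallest count behind any value was 129 fragments, for CCNE2 in 1 library.

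None of the 52 genes passed the test of TGF-b1 against control. By limma on log2(FPKM + 1), with p-values adjusted by Benjamini-Hochberg over all genes tested, 0 of 52 were higher and 0 lower, where 1.14% of all genes were called higher and 1.29% lower (130 and 147 genes). The smallest adjusted p among them was 0.076. At an unadjusted p under 0.05 there were 15, 14 of them higher, against 25.1% of all genes (11.2% higher and 13.9% lower). limma's voom on fragments recovered from the FPKM called 6 higher and 0 lower, against 3.51% of all genes higher and 5.83% lower. The changes were small and mostly in 1 direction: 39 of 52 were above 0 against 52% of all genes, and the median log2 change was 0.15 against 0.01. Ratios of the group means ran from 0.845 for POLD2 to 1.62 for CCNE2, with a median of 1.12.

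Intervals of this fit bound what scatter among these libraries could hide. They do not cover a dependence on the base composition of transcripts. A further fit removed a trend with GC content and length from each library. In it the log2 changes of E2F1 (0.34), TK1 (0.23), CDT1 (0.22) and POLD1 (0.16) exceeded the upper ends of their intervals. Those ends were 0.32, 0.22, 0.21 and 0.14, and the changes of the other genes lay inside their intervals. For 48 of the 52 genes the 95% interval of the log2 change lay inside a 1.5-fold change in either direction, and for all 52 inside a log2 change of 1 on the scale fitted, which understates low genes. The intervals of CLSPN, CCNE2, PRIM1 and RFC3 reached beyond 1.5-fold, and only upward. In 20 genes every TGF-b1 library was above every control library, and in 0 every one was below, while 14.6% of all genes were separated upward and 12.5% downward. The mean of log2(FPKM + 1) over the 52 genes was 4.37, 4.41 and 4.39 in the controls and 4.49, 4.53 and 4.54 in the TGF-b1 libraries. In bulk RNA a larger share of cells in S phase and more transcript per cell cannot be told apart.

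**Figure D1:**
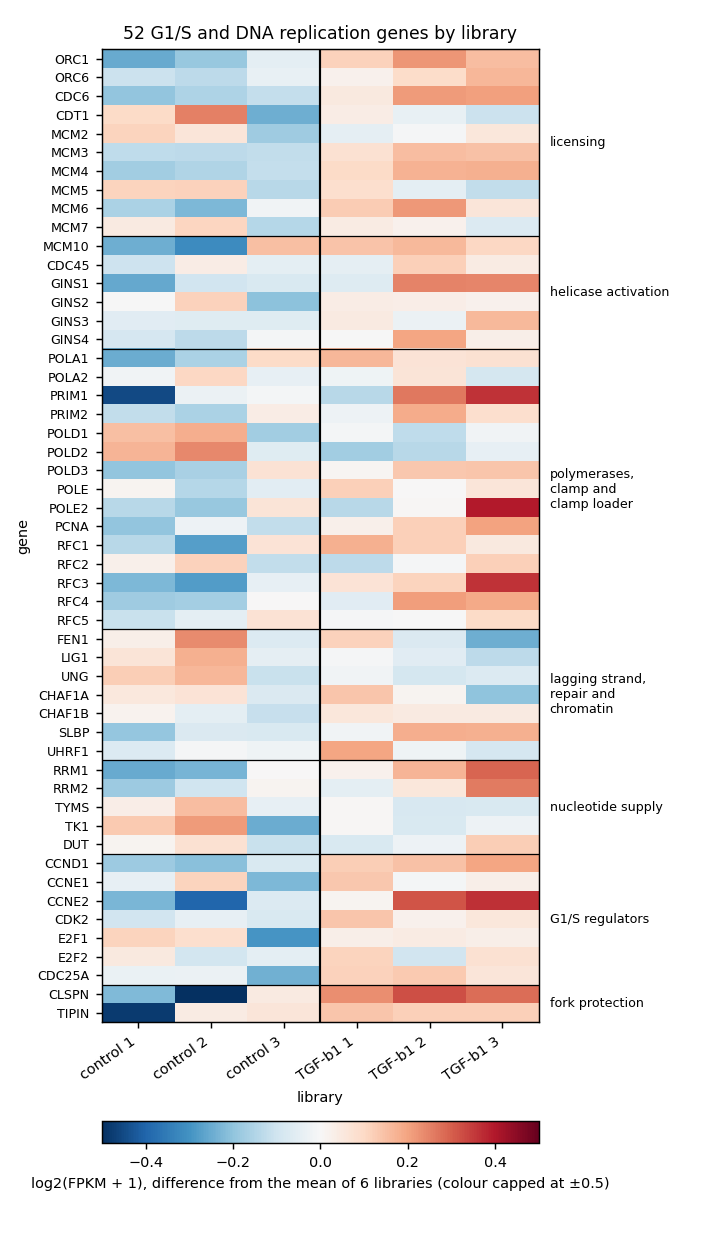
Each row is 1 of the 52 genes and each column 1 library; colour is the difference of log2(FPKM + 1) from that gene's mean over the 6 libraries, capped at 0.5 in either direction. In 39 rows the TGF-b1 mean is above the control mean, 12 rows are blue in all controls and red in all TGF-b1 libraries, and control 3 differs from controls 1 and 2 in many rows.

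**Figure D2:**
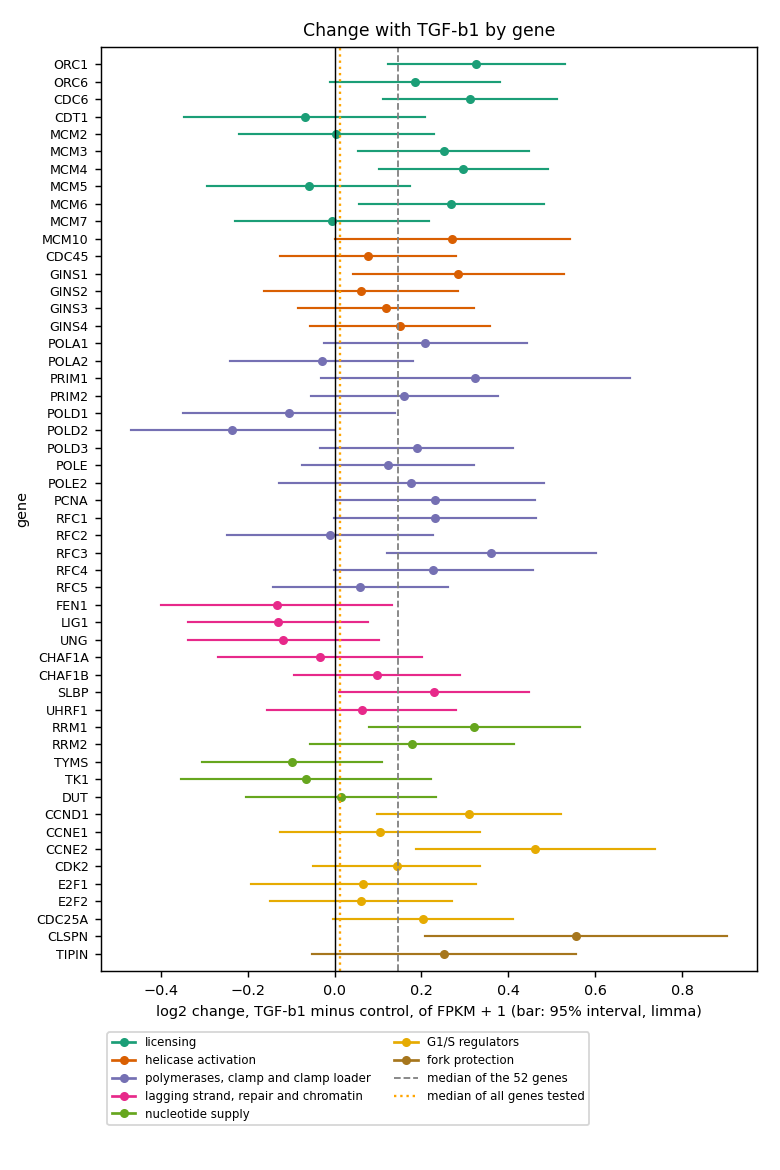
Points are log2 changes (TGF-b1 minus control, of FPKM + 1) with 95% limma intervals for the 52 genes, coloured by role. The dashed line is their median of 0.15 and the dotted line the median of all genes tested, 0.01; 39 points lie above 0.

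The libraries were of like depth, with 53591796 to 60200816 reads each, 93.5 to 95.5% of them mapped. Control 3 stood apart: chi-square per degree of freedom on recovered fragments was 20.4 and 28.9 against the other controls and 6.5 between those, where 1 is sampling noise. TGF-b1 replicate 3 was also distant from replicate 1 of its group (20.7). Without control 3 the whole table gave 12.4% of genes higher and 16.5% lower, and among the 52 genes 14 were then higher and 1 lower. SMAD7, the inhibitory SMAD induced by TGF-β, rose from 2.35 ± 0.30 to 6.39 ± 0.932 FPKM (SD, n = 3; limma adjusted p = 0.00055). Of 18 urothelial and epithelial markers 7 were expressed, led by KRT18 and KRT8. KRT5, KRT13, KRT14, KRT19 and UPK3A were listed at 0 in every library, and GATA3 reached at most 0.065 FPKM. The summed level of the 18 was 477 to 645 FPKM in control and 414 to 445 in TGF-b1 libraries. KRT18 stood at 322 ± 55.1 and 227 ± 13.4 FPKM (adjusted p = 0.079). All 8 fibroblast and muscle markers together reached at most 0.327 FPKM in a library, and all 8 leukocyte and endothelial markers 0.745.

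Of 10 origin licensing genes 6 were separated upward, where 14.6% of all genes were. ORC1, the largest subunit of the origin recognition complex, stood at 11.1, 11.7 and 13 FPKM in the controls and 14.6, 15.8 and 15.1 in the TGF-b1 libraries. The groups did not overlap, and the log2 change was 0.33 (SE 0.092, adjusted p = 0.084). ORC6, a smaller subunit, did not overlap either, at 13.8 ± 0.513 and 15.8 ± 0.830 FPKM (SD, n = 3; adjusted p = 0.22). CDC6, the ATPase that helps to load the helicase, stood at 17.6, 18.1 and 18.6 FPKM and then 21.0, 23.7 and 23.6. All TGF-b1 libraries were above all controls, with a log2 change of 0.31 (SE 0.090, adjusted p = 0.088). CDT1, its partner in loading, went the other way at 40.3, 45.1 and 31.7 FPKM in controls and 38.7, 36.7 and 34.9 with TGF-b1. Its groups overlapped, control 3 was the lowest of the 6, and the log2 change was -0.07 (95% interval -0.35 to 0.21, adjusted p = 0.75).

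Of the 6 helicase genes 3 were separated upward, where 14.6% of all genes were, and 3 overlapped. Differences between the genes were not tested. MCM3 stood at 65.8, 65.5 and 65.9 FPKM in controls and 75.7, 79.9 and 79.7 with TGF-b1. MCM4 stood at 42.2, 43.0 and 43.9 FPKM and then 51.1, 54.0 and 54.1, and MCM6 at 33.0, 31.5 and 36.5 and then 40.5, 43.1 and 38.6. In these 3 genes the groups did not overlap, and the log2 changes were 0.25 (adjusted p = 0.13), 0.30 (0.095) and 0.27 (0.13). MCM2 stood at 33.9, 32.7 and 27.5 FPKM in controls and 30.3, 31.2 and 32.6 with TGF-b1. MCM5 stood at 34.8, 34.9 and 29.1 FPKM and then 34.2, 31.0 and 29.4, and MCM7 at 89.2, 93.2 and 78.4 and then 89.0, 87.8 and 82.6. In these other 3 the groups overlapped, control 3 was the lowest library, and the log2 changes were 0.0043, -0.059 and -0.0052 (adjusted p 0.74 to 0.98). Their 95% intervals together ran from -0.29 to 0.23. MCM3, MCM4 and MCM6 made up 47.2, 46.6 and 52% of the summed FPKM of the 6 genes in the controls and 52.2, 54.1 and 54.4% with TGF-b1, so control 3 lay beside the TGF-b1 libraries in this share. The protein products form a ring with 1 copy of each, while the transcript levels spanned a 2.77-fold range from MCM2 to MCM7. Exons of other genes also cover 23.6% of the exonic length of MCM2, and the strand setting of the counting was not stated. One of these genes, TPRA1 on the opposite strand, stood at 7.34 ± 1.05 and 4.85 ± 0.654 FPKM (adjusted p = 0.055).

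**Figure D3:**
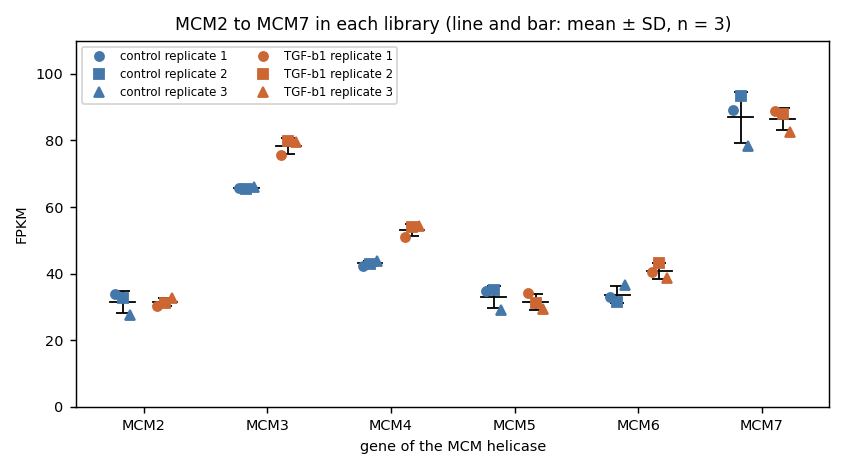
FPKM of the 6 MCM helicase genes in each library, controls in blue and TGF-b1 in orange, with symbols for replicate numbers and mean ± SD in black (n = 3). MCM3, MCM4 and MCM6 are separated between groups, while MCM2, MCM5 and MCM7 overlap with control 3 (triangle) lowest.

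Genes that activate the helicase were all above 0 in their fitted change, against 52% of all genes. Of these 6, 3 were separated upward, against 14.6% of all genes. GINS1, a subunit of the 4-protein GINS complex, stood at 21.2, 23.7 and 24 FPKM in controls and 24.3, 30.4 and 30.3 with TGF-b1. The lowest TGF-b1 library lay just above the highest control, and the log2 change was 0.28 (SE 0.11, adjusted p = 0.15). GINS2, the most abundant of the complex, stood at 29.6, 32.2 and 25.6 and then 30.5, 30.3 and 30.1 FPKM. Its groups overlapped, with the controls far more spread than the TGF-b1 libraries (log2 change 0.061, adjusted p = 0.72). GINS3 and GINS4 lay at 3.73 ± 0.00725 and 4.14 ± 0.344 FPKM and at 5.56 ± 0.272 and 6.29 ± 0.556 FPKM, separated but small (adjusted p = 0.42 and 0.32). The 4 GINS genes spanned a 7.55-fold range of levels. MCM10, a scaffold of the starting fork, stood at 4.15 ± 0.925 and 5.16 ± 0.127 FPKM, with control 3 at 5.21 inside the TGF-b1 range (log2 change 0.27, adjusted p = 0.20). CDC45, the partner of GINS in the active helicase, stood at 26.0 ± 1.33 and 27.4 ± 1.60 FPKM (adjusted p = 0.61).

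Among the 15 polymerase, clamp and clamp loader genes 2 were separated, PCNA and RFC3, near the 14.6% of all genes separated upward, and 11 had a change above 0, against 52% of all genes. PCNA, the ring that holds polymerases on DNA, stood at 185, 209 and 195 FPKM in controls and 216, 231 and 244 with TGF-b1. The log2 change was 0.23 (SE 0.10, adjusted p = 0.20). RFC3, a small subunit of the clamp loader, stood at 14.4, 13.8 and 16.5 FPKM and then 17.8, 18.4 and 22.1. This was the largest change of the 15 at 0.36 (SE 0.11, adjusted p = 0.097). The loader's other subunits ran from -0.01 for RFC2 to 0.23 for RFC1 and RFC4, and the 5 genes spanned an 8.66-fold range of levels, from RFC1 at 9.48 to RFC2 at 82.1 FPKM. PRIM1, the catalytic primase subunit, had a change of 0.32 with the widest error of the 15 (SE 0.16, adjusted p = 0.23). POLA1, the catalytic subunit of polymerase alpha, stood at 5.73 ± 0.852 and 6.75 ± 0.298 FPKM (adjusted p = 0.23), and POLA2 and PRIM2 had changes of -0.030 and 0.16. In polymerase delta, POLD2, an accessory subunit, stood at 62.9 ± 6.76 and 53.1 ± 2.64 FPKM, the lowest log2 change of all 52 genes at -0.23 (adjusted p = 0.20). The catalytic POLD1 was at -0.11 and the accessory POLD3 at 0.19 (adjusted p = 0.56 and 0.25). The polymerase epsilon genes POLE and POLE2 were at 0.12 and 0.18 (adjusted p = 0.39 and 0.42).

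Genes of lagging-strand maturation, uracil repair and chromatin assembly had a median log2 change of -0.03, and 4 of 7 were below 0. SLBP, which binds the stem-loop of histone mRNAs, stood at 56.1, 61.0 and 60.9 FPKM in controls and 63.5, 73.1 and 72.8 with TGF-b1. Its groups did not overlap (log2 change 0.23, SE 0.099, adjusted p = 0.18). FEN1, the flap nuclease, and LIG1, the ligase that joins Okazaki fragments, stood at 62.2 ± 6.92 and 56.7 ± 7.21 FPKM and at 13.4 ± 1.11 and 12.2 ± 0.568 FPKM. UNG, the uracil glycosylase, was at 28.7 ± 2.99 and 26.2 ± 0.698 FPKM, and adjusted p was 0.38 to 0.49 for these 3. The CAF-1 histone chaperone genes CHAF1A and CHAF1B were at nearly equal levels, 18.9 and 18.6 FPKM, with changes of -0.033 and 0.098. CHAF1B was the only other separated gene of these 7, where 14.6% of all genes were separated upward. UHRF1, which guides DNA methylation to new strands, was at 23.7 ± 0.548 and 24.9 ± 2.70 FPKM (adjusted p = 0.71). The low median of these 7 genes depended on the fit. With a trend in GC content and length removed from each library, CHAF1A moved to 0.12. FEN1, LIG1 and UNG then stood nearer to no change, at -0.0075, -0.019 and -0.050. SLBP, CHAF1B and UHRF1 stood at 0.31, 0.080 and 0.15.

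Of the 5 nucleotide supply genes 1, RRM1, was separated, near the 14.6% of all genes separated upward. RRM1, the large subunit of ribonucleotide reductase, stood at 40.7, 41.3 and 48.8 FPKM in controls and 49.4, 54.9 and 59.8 with TGF-b1. The groups did not overlap, though control 3 was within 1 FPKM of the lowest TGF-b1 library (log2 change 0.32, SE 0.11, adjusted p = 0.13). RRM2, the small subunit that limits the enzyme in S phase, stood at 27.1, 28.7 and 31.1 and then 29.8, 32.1 and 37.2 FPKM (0.18, adjusted p = 0.30). TK1 stood at 309, 327 and 237 FPKM in controls and 283, 267 and 277 with TGF-b1. Control 3 was again lowest and the groups overlapped (-0.065, 95% interval -0.35 to 0.22, adjusted p = 0.77). TYMS, thymidylate synthase, stood at 40.9, 44.6 and 38.8 and then 40.1, 37.8 and 37.9 FPKM (-0.098, adjusted p = 0.51). Exons of ENOSF1 and TYMSOS, on the opposite strand, cover 46.6% of the exonic length of TYMS. DUT, the dUTPase, was at 45.3 ± 3.06 and 45.8 ± 3.41 FPKM (adjusted p = 0.94).

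All 7 regulators of G1/S entry had a change above 0, against 52% of all genes. Of these 7, 4 were separated upward, against 14.6% of all genes. CCND1, the D-type cyclin that starts phosphorylation of the retinoblastoma protein, stood at 122, 120 and 132 FPKM in controls and 151, 154 and 159 with TGF-b1. The gap between groups exceeded the spread within each, with a log2 change of 0.31 (SE 0.096, adjusted p = 0.10). CCNE2 stood at 1.57, 1.3 and 1.88 FPKM and then 2.05, 2.75 and 2.89. It had the smallest adjusted p of the 52 genes (log2 change 0.46, SE 0.12, adjusted p = 0.076), at 129 to 302 fragments per library. Exons of INTS8 and of a locus without a gene name, both on the opposite strand, cover 37.1% of its exonic length. INTS8, looked up after the values were seen, stood at 7.23 ± 0.747 and 8.07 ± 0.972 FPKM (adjusted p = 0.43).

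The other E-type cyclin, CCNE1, stood at 10.7, 12 and 9.30 FPKM in controls and 12.2, 11 and 11.3 with TGF-b1 (log2 change 0.10, adjusted p = 0.54). CDK2, the kinase that both E-type cyclins activate, stood at 24.3, 25.2 and 24.6 and then 28.7, 26.4 and 27.1 FPKM (0.14, adjusted p = 0.31). CDK2 was separated and CCNE1 was not. CDC25A, the phosphatase that activates CDK2 and a known target of TGF-β repression in epithelial cells, stood at 7.29, 7.31 and 6.18 FPKM and then 8.19, 8.28 and 7.84. It was separated upward, at 0.20 (95% interval -0.0036 to 0.41, adjusted p = 0.20). E2F1, the activating E2F factor, stood at 48.1, 47.2 and 36.1 FPKM and then 45.5, 45.8 and 45.4. The TGF-b1 libraries were within 0.5 FPKM of each other, and control 3 alone was lower (0.067, adjusted p = 0.73). E2F2 stood at 6.29, 5.6 and 5.80 and then 6.60, 5.59 and 6.41 FPKM (0.061, adjusted p = 0.70).

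Both fork protection genes were separated upward, where 14.6% of all genes were. CLSPN, which encodes Claspin, the mediator between stalled forks and the CHK1 kinase, stood at 8.09, 5.73 and 9.94 FPKM in controls and 11.4, 12.3 and 11.9 with TGF-b1. On the fitted scale of log2(FPKM + 1), which understates low genes, CLSPN had the largest change of the 52 genes. It was 0.56 (SE 0.15, 95% interval 0.21 to 0.90, adjusted p = 0.086), with controls spread over a far wider range than the TGF-b1 libraries. By voom the log2 change of CCNE2 was larger, at 0.70 against 0.62 for CLSPN. TIPIN, a fork protein that works with Claspin, stood at 5.24 ± 1.24 and 6.32 ± 0.0602 FPKM, with control 1 lowest at 3.81 (adjusted p = 0.26). CLSPN lies on chromosome 1 at 35720218 to 35769967, CCNE2 on chromosome 8 at 94879770 to 94896678, CCND1 on chromosome 11 at 69641087 to 69654474 and ORC1 on chromosome 1 at 52372829 to 52404459, in GENCODE 29 on GRCh38.

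The values moved with the base composition of the transcripts. Over the 52 genes, Pearson's r between the GC content of the longest transcript and the log2 change with TGF-b1 was -0.71, and with the difference of control 3 from controls 1 and 2 it was -0.82. These are correlations across genes of the same libraries, which are not independent replicates, and over 11292 tested genes they were -0.54 and -0.62. The 26 genes of lower GC content (36.9 to 49.1%), such as CCNE2, RFC3 and MCM6, all had a change above 0, with a median of 0.23. Of the 26 of higher GC content (49.8 to 65%), such as CDT1, TK1, E2F1 and MCM7, 13 did, with a median of -0.00048. MCM3, MCM4 and MCM6 had GC contents of 51.6, 48.5 and 43.1%, and MCM2, MCM5 and MCM7 of 58.1, 57.0 and 57.6%. In polymerase delta, POLD3 had a GC content of 43.0% and POLD2 of 59.1%.

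When a loess trend with GC content and length was removed from each library, both sets had the same median, 0.16, with 25 of 26 and 21 of 26 genes above 0. Removing a trend with GC content largely levels such sets by itself, so the equal medians of that fit are not a separate result. By that fit 5 of the 52 genes were higher (ORC1, MCM3, MCM4, CCND1 and E2F1) and 0 lower, where 2.59% of all genes were higher and 1.8% lower. TK1, CDT1 and E2F1 moved to log2 changes of 0.23, 0.22 and 0.34 (limma adjusted p = 0.052, 0.057 and 0.013). MCM2, MCM5 and MCM7 moved to 0.16, 0.057 and 0.15 (adjusted p = 0.15 to 0.60), and MCM6 moved from 0.27 to 0.17 (adjusted p = 0.20), level with MCM2 and MCM7. POLD1 and POLD2 moved to 0.16 and -0.047 (adjusted p = 0.18 and 0.71). MCM4 moved from 0.30 to 0.26 (adjusted p = 0.028) and CCND1 from 0.31 to 0.32 (adjusted p = 0.024). Without control 3 and with no trend removed, the 14 genes called higher were ORC1, CDC6, MCM3, MCM4, MCM6, MCM10, POLA1, POLD3, RFC1, RFC3, RRM1, CCND1, CCNE2 and CLSPN, and POLD2 was lower. MCM4 and CCND1 were called in both of these settings and by voom, which also called CDC6, RFC3, CCNE2 and CLSPN. With control 3 left out as well as the trend, 8 were higher (ORC1, MCM3, MCM4, SLBP, RRM1, CCND1, E2F1 and CLSPN), where 4.03% of all genes were. What part base composition has in each gene's change was not tested beyond those fits.

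Other settings called few of the 52 genes. A minimum of 5 FPKM gave CLSPN (background 2.67% higher), quantile normalization gave MCM4 (1.45%), scaling to the same FPKM total gave MCM4 and CCND1 (1.8%) and leaving out TGF-b1 1 gave CCNE2 (1.14%). None was called with a pseudocount of 0.1 (2.36% of all genes called in either direction), no filter (0.053%) or no trend and no robust step (1.8%). The same held on leaving out control 1 (1.09%), control 2 (1.55%), TGF-b1 2 (1.34%) or TGF-b1 3 (1.34%). Scaling to the same FPKM total also moved the split of all calls to 205 higher and 154 lower.

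**Figure D4:**
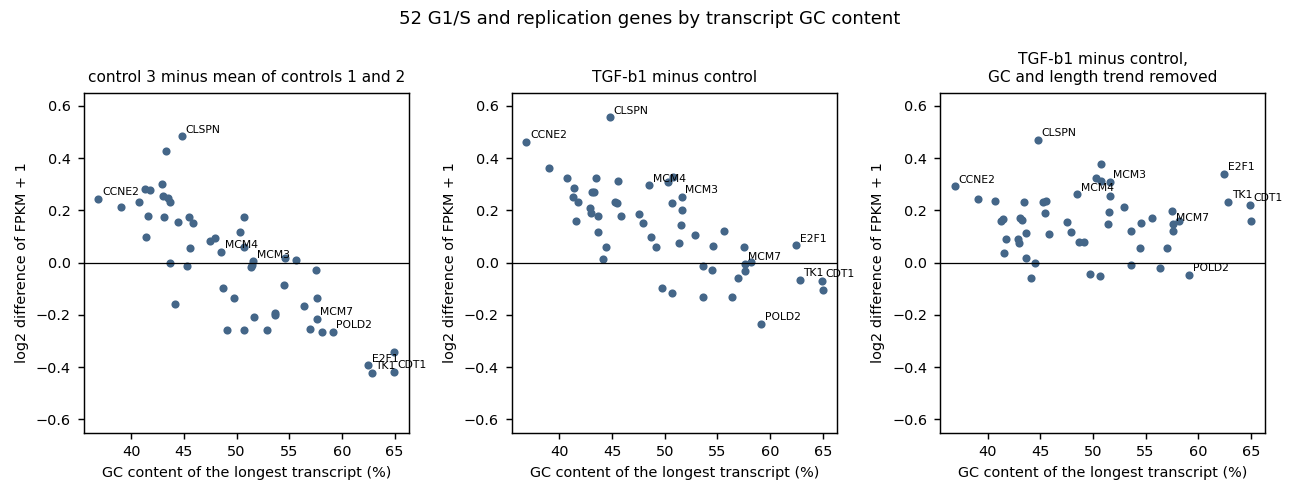
Each point is 1 of the 52 genes; the x axis is the GC content of its longest transcript and the y axis a log2 difference of FPKM + 1, for control 3 against the other controls (left), TGF-b1 against control (middle) and the latter after removal of the GC and length trend (right). The slope in the left and middle panels (r of -0.82 and -0.71) is near 0 in the right panel (r of -0.0044), which follows largely from the removal itself. Most points in the right panel lie above 0.

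Other genes of the same processes had like values. Of 66 further G1/S and replication genes 63 were tested. Of the 63, 3 were higher and 0 lower, where 1.14% of all genes were higher and 1.29% lower. Their median log2 change was 0.20, and 82.5% were above 0, against 52% of all genes. When control 3 was left out 29 were higher and 5 lower, where 12.4% of all genes were higher and 16.5% lower. With the GC and length trend taken out the median was 0.098. CTPS1, which makes CTP, rose from 18.1, 18.4 and 17.3 FPKM to 29.8, 30.3 and 28.8, a log2 change of 0.70 (SE 0.086, adjusted p = 0.0021). CDK6, a partner of D-type cyclins, rose from 7.08, 6.46 and 8.91 FPKM to 11.9, 11.5 and 12.2 (0.61, SE 0.11, adjusted p = 0.016). WEE1, the kinase that restrains CDK1 and CDK2, rose from 7.51 ± 0.689 to 10.7 ± 0.948 FPKM (0.46, SE 0.10, adjusted p = 0.041). The CTPS1 call held whichever library was left out and was lost only with no filter on low values (adjusted p = 0.0501). The CDK6 call was lost in 4 of 16 alternatives, with no filter (adjusted p = 0.24) and on leaving out control 1 (adjusted p = 0.076), control 2 (0.056) and TGF-b1 3 (0.057). The WEE1 call was lost in 8 of 16 alternatives. Among these were the fits lacking control 1 (0.21), control 2 (0.11), TGF-b1 2 (0.17) and TGF-b1 3 (0.15), and the fit that removed the trend with GC content (0.095).

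Of 36 G2/M genes 35 were tested, with a median of 0.17 and 28 above 0 (80%), against 52% of all genes. Of the 35, 1 was higher and 0 lower, where 1.14% of all genes were higher and 1.29% lower. When control 3 was left out 13 were higher and 0 lower, where 12.4% of all genes were higher and 16.5% lower. With the trend taken out the median was 0.11. The gene that passed with all libraries was CKAP2L, a spindle protein, at 11.5 ± 1.09 and 16.1 ± 0.955 FPKM (0.45, SE 0.098, adjusted p = 0.037), a call lost in 7 of 16 alternatives, among them each fit lacking 1 library other than control 3 (0.050 to 0.17). None of 8 CDK inhibitors passed in limma or in voom. At an unadjusted p under 0.05 there were 2 of the 8, both lower, where 25.1% of all genes were (11.2% higher and 13.9% lower). The median of the 8 was -0.15. With the GC and length trend taken out that median was 0.01, and 5 of the 8 were above 0. CDKN1A, which encodes p21, stood at 98.7 ± 12.5 and 90.1 ± 5.95 FPKM (adjusted p = 0.50), and CDKN1B, which encodes p27, at 15.9 ± 1.52 and 15.9 ± 0.80 FPKM (adjusted p = 0.99). CDKN2B, which encodes the p15 inhibitor known as a TGF-β target in epithelial cells, was low at 1.22 ± 0.0755 and 1.48 ± 0.231 FPKM (adjusted p = 0.37). CDKN1C, which encodes p57, had the smallest p of the list, at 2.46 ± 0.752 and 1.33 ± 0.547 FPKM (adjusted p = 0.15). When control 3 was left out 4 of the 8 passed, all lower: CDKN2A (adjusted p = 0.0084), CDKN2C (0.023), CDKN1C (0.031) and CDKN2D (0.040), where 16.5% of all genes were lower. MYC, the growth factor-driven transcription factor, fell from 33.7 ± 1.69 to 25.3 ± 1.58 FPKM (-0.40, adjusted p = 0.049), a call lost in 12 of 16 alternatives. Of the fits lacking 1 library, only that lacking control 3 kept it (0.079 to 0.18 in the others).

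**Figure D5:**
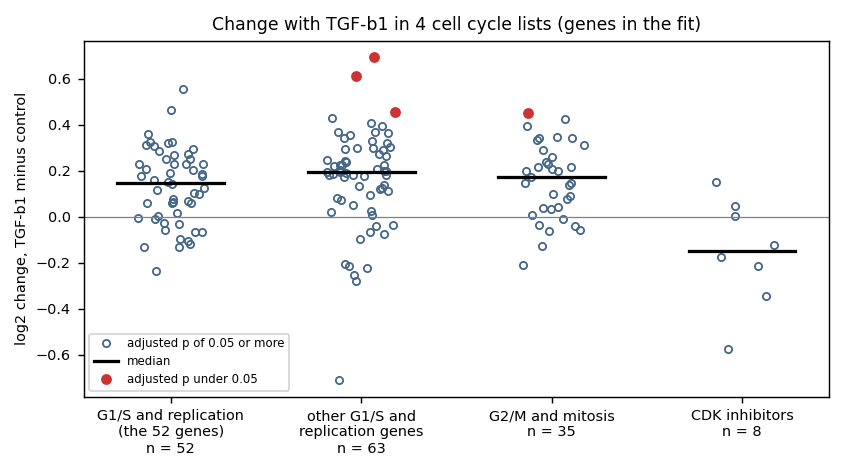
Log2 changes with TGF-b1 of the tested genes in 4 lists, with medians as black lines; filled red points passed an adjusted p of 0.05. The 3 lists of genes that act in S phase and mitosis have medians of 0.15, 0.20 and 0.17, and the CDK inhibitors one of -0.15, which was 0.01 after removal of the GC and length trend; differences between the lists were not tested.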

How the data were processed

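Per the labels, total RNA was sequenced as 150 bp read pairs, and the submitters' processing notes name build hg38, featureCounts 1.5.0-p3 and HISAT2 2.0.5. The sources used here do not give the annotation, strand setting or kit. The deposited values are FPKM, made by the authors; the first 11 rows are mapping totals and were left out. With GENCODE 29 exon lengths, 99.999% of 126561 FPKM above 0 gave fragments within 0.05 of a whole number. The members and gene lists were chosen with earlier results of these data known. The test was limma 3.58.1 (R 4.3.3) on log2(FPKM + 1), with trend and robust estimation, for the 11363 genes that reached 1 FPKM in 3 or more libraries, treatment as the only term, adjusted by Benjamini-Hochberg at 0.05. It was tested on simulated data. Values per library are given for the highest and most changed gene of each role group and for a fixed set (PCNA, MCM2, CDC6, CDT1, CCND1, CCNE1, CCNE2, E2F1, E2F2, CDC25A, CDK2, RRM2 and TYMS); MCM3 to MCM6 were added to complete the helicase. Other lists are represented by members past the threshold, or else the smallest p, with CDKN1A, CDKN1B, CDKN2B, MYC and SMAD7. Alternatives changed the pseudocount, filter, scaling, model, block and libraries; the fit without both the GC and length trend and control 3 was added after the data were seen.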

Additional observations from a re-analysis of the deposited data

How the results depend on the processing

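The median log2 change of the 52 genes was above 0 under all 16 alternatives. It was 0.22 when libraries were scaled to the same FPKM total, where the median of all genes also rose, from 0.01 to 0.077. It was 0.18 when control 3 and the GC and length trend were removed, and it ran from 0.12 to 0.16 when 1 library was left out. The count of the 52 genes past the threshold was 1 at a minimum of 5 FPKM, 1 with quantile normalization, 2 with the same FPKM total, 6 by voom, 5 after the GC and length trend was removed and 8 when control 3 was also left out. It ran from 0 to 15 when 1 library was left out, and 15 was the count without control 3; without TGF-b1 1 it was 1 and without any other library 0. Of all 11363 genes 277 passed. The count was 15 with no filter, 500 at a minimum of 5 FPKM, 1054 by voom, 495 with the trend removed and 935 with the trend and control 3 removed. It ran from 124 (without control 1) to 3280 (without control 3) when 1 library was left out, with 176 without control 2 and 152 without TGF-b1 2 or TGF-b1 3. With the same FPKM total 205 were higher and 154 lower, against 130 and 147. Where counts differ the cause was not tested.

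Same-numbered libraries deviated together with correlations of 0.25, -0.071 and 0.17, while differently numbered ones ran from -0.24 to 0.069. These values do not settle whether the numbers mark a pairing. With the replicate number as a block 767 genes passed, and 1 of the 52, RFC3.

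Of 829 alternative values of single genes among the 52, 742 kept their direction and side of the threshold, 40 passed it and 47 changed sign. The 14 genes that changed sign anywhere all had a log2 change of at most 0.12 in size. With the same FPKM total the values were 0.0098 for CDT1, 0.019 for MCM5, 0.074 for MCM7, 0.029 for POLA2, 0.068 for RFC2, 0.044 for CHAF1A and 0.015 for TK1. With quantile normalization they were 0.10 for MCM7, 0.091 for RFC2, 0.0068 for CHAF1A and 0.070 for TK1. Once the trend was removed they were 0.22 for CDT1, 0.057 for MCM5, 0.15 for MCM7, 0.055 for POLA2, 0.16 for POLD1, 0.12 for RFC2, 0.12 for CHAF1A, 0.23 for TK1, -0.059 for DUT and 0.060 for CDKN1A. With control 3 also left out they were 0.21 for CDT1, 0.023 for MCM5, 0.15 for MCM7, -0.022 for GINS3, 0.066 for POLA2, 0.16 for POLD1, 0.12 for RFC2, 0.15 for CHAF1A, 0.22 for TK1, -0.14 for DUT, 0.040 for CDKN1A and -0.015 for CDKN1B. When 1 library was left out, CDT1 ran from -0.21 to 0.041, MCM2 from -0.084 to 0.061, MCM7 from -0.077 to 0.046, GINS2 from -0.025 to 0.13 and POLA2 from -0.070 to 0.014. RFC2 ran from -0.076 to 0.052, CHAF1A from -0.11 to 0.059, UHRF1 from -0.021 to 0.12, TK1 from -0.21 to 0.025, DUT from -0.043 to 0.057, E2F1 from -0.064 to 0.14 and CDKN1B from -0.042 to 0.075. Counting error is largest for CCNE2, with 129 fragments in its shallowest library.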
